A study of Mus musculus with 36 samples.

Results

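The 5 perilipin genes (Plin1 to Plin5) and 5 genes of fat cells (Adipoq, Lep, Cidec, Cidea and Fabp4) were followed through 36 bulk mRNA libraries of subcutaneous mouse tumours, 10 of the 37417 genes in the count table. They were listed by name, with earlier values from the same libraries known. MC38 colon adenocarcinoma and PancO2 pancreatic adenocarcinoma cells were grown in C57BL/6J mice and CT26 colon carcinoma cells in BALB/c mice, all wild type and 12 weeks old. Each model was given IgG, anti-CTLA4 or anti-PD-1 intraperitoneally at 10 mg/kg, which gave 9 labelled groups of 4 tumours, 1 library per mouse, collected at end stage. These are transplanted lines grown under the skin, so host skin, fat and muscle can be taken with a tumour, and fewer cells of a type and less RNA per cell cannot be told apart in such bulk samples.

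The measured values did not follow the labelled strains. H2-Ea-ps, a class II histocompatibility pseudogene that C57BL/6J mice are known not to transcribe and BALB/c mice to express, exceeded 10 CPM (a gene's counts scaled to a common total of counts assigned to genes) in 4 of the 12 libraries labelled CT26 and in 8 of the 24 labelled MC38 or PancO2. The model labels may therefore not belong to the count columns that carry them, and groups are named below only as labelled. The genes are therefore described by 3 classes of 12 libraries, set by 2 other genes. H2-Ea-expressing libraries had H2-Ea-ps at 32.8 to 134 CPM, and the remaining libraries had at most 0.0845 CPM. Cp-high libraries had Cp, the gene of ceruloplasmin, at 1389 to 2168 CPM. In the Cp-low H2-Ea-negative libraries, which passed neither threshold, Cp was at 255 to 611 CPM. Each class drew on every model: 4, 3 and 5 Cp-high libraries, 4, 4 and 4 H2-Ea-expressing libraries and 4, 5 and 3 Cp-low H2-Ea-negative libraries were labelled MC38, CT26 and PancO2. Since the classes come from the measured values, differences between them are given as descriptions with no test. Totals ran from 7883106 to 41751023 counts per library. The shallowest, labelled PancO2 anti-PD-1 71, stood apart: 15.7% of its counts were mitochondrial, against 2.80% to 4.35% in the other 35.

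Perilipins coat lipid droplets, the stores of neutral fat inside cells, and control the access of lipases to them. Plin1 is the coat protein of fat cells, Plin2 and Plin3 are made in most tissues, Plin4 coats small nascent droplets and is abundant in fat and muscle, and Plin5 is typical of muscle, liver and other tissues that burn fat. Adipoq (adiponectin) and Lep (leptin) are hormones secreted by fat cells, Cidec and Cidea are droplet proteins that promote droplet fusion, and Fabp4 is a fatty acid carrier of fat cells that macrophages and capillary endothelium make as well.

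Plin4 separated all 3 classes, and Plin2 separated H2-Ea-expressing libraries from the other 2 classes in CPM. Plin1 and Adipoq, which mark fat cells, were low in every class. The stretch before the transcription start is shown for these 4 genes. Each is the 250 bases before the start in RefSeq on GRCm38.p6, read 5′ to 3′ on the gene's own strand, with matches to 6 searched motifs in capitals.
Plin4, chr17:56109783-56110032, minus strand: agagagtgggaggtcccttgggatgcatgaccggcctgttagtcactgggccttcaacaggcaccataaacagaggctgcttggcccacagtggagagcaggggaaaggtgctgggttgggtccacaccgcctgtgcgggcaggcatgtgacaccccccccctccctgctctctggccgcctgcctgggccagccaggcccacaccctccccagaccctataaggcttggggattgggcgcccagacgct
Plin2, chr4:86670060-86670309, minus strand: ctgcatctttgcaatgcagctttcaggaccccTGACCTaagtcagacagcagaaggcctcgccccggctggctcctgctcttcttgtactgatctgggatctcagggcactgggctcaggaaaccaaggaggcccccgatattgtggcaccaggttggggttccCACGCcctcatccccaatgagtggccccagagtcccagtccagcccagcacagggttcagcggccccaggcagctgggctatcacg
Plin1, chr7:79732777-79733026, minus strand: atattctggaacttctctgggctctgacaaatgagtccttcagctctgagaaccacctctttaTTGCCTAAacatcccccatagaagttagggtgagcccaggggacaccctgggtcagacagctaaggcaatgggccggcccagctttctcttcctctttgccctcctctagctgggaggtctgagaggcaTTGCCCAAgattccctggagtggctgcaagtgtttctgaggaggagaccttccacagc
Adipoq, chr16:23146286-23146535, plus strand: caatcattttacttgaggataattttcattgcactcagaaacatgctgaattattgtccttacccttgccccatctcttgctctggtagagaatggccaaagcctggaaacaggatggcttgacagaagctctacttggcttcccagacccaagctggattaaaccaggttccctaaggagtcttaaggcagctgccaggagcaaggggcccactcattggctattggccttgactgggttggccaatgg
The motifs, searched on both strands, were the nuclear receptor half-site AGGTCA, the C/EBP-type TTGCNNAA, the hypoxia element cores ACGTG and GCGTG, the TATA box TATAAA and the GC box GGGCGG. The capitals in Plin2 are 1 AGGTCA on the opposite strand, which 14% of the 32851 promoter windows of this length hold, and 1 GCGTG on the opposite strand, held by 28.2%. Both runs of capitals in Plin1 are TTGCNNAA, which 9.56% of windows hold. Plin4 and Adipoq held none of the 6 in this window, which says only that these letters are not there. GC content was 65.2% in the Plin4 window and 48.8% in the Adipoq window, against a median of 52.4% over all windows. Of the 10 genes, 6 were searched (these 4, Plin3 and Lep), and Cidea was left out beforehand.

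The members split by level before they split by class. Plin2, Plin3 and Plin4 were at or above 1 CPM in all 36 libraries and Fabp4 in 35, and these were the 4 members to reach 1 CPM in at least 4 libraries. Adipoq, Lep and Cidea each passed 1 CPM in 1 library, and Plin1, Plin5 and Cidec in none. Summed over all 36 libraries, Adipoq had 290 counts, Cidec 222, Lep 127, Plin1 103 and Cidea 25. Apart from Fabp4, the fat cell genes were thus present at trace levels in tumours of every class.

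**Figure D1:**
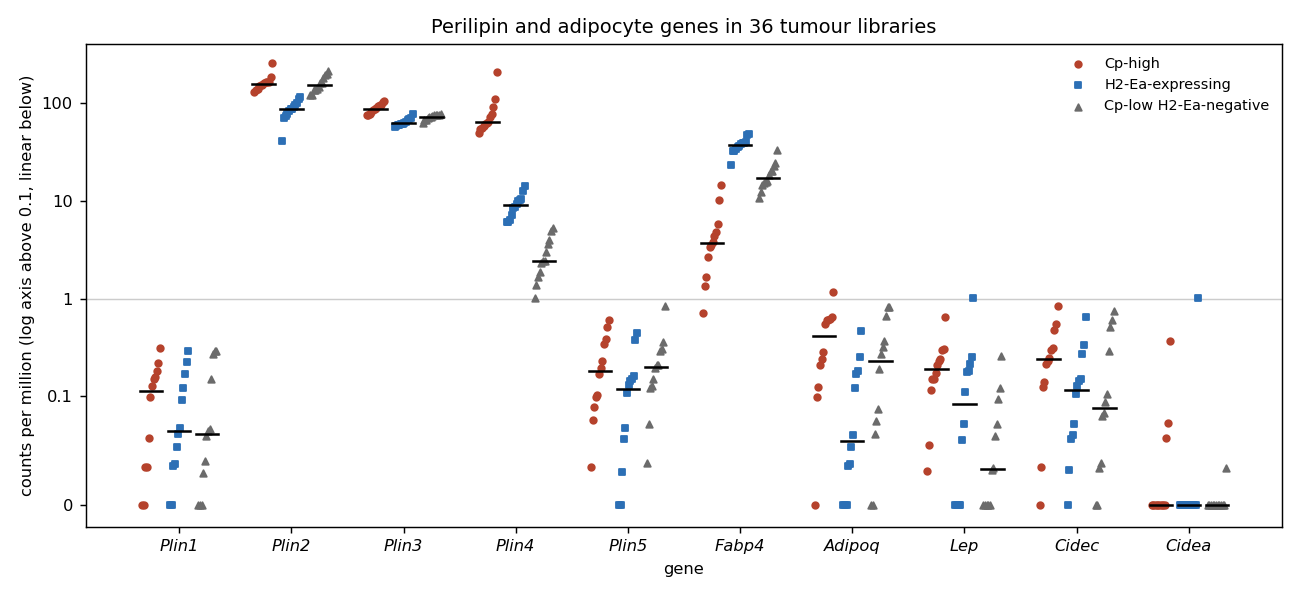
Level of each of the 10 genes in CPM (log axis above 0.1, linear below) in the 36 libraries, 1 point per library, coloured by class, with a bar at the class median. Plin4 forms 3 separate bands, Plin2 and Plin3 lie between 41.1 and 254 CPM in every library, Fabp4 is lowest in the Cp-high class, and the other genes scatter from 0 to 1.18 CPM in all 3 classes.

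Plin4 separated all 3 classes. In Cp-high libraries it ran from 49.2 CPM (MC38 anti-PD-1 17) to 206 CPM (PancO2 anti-CTLA4 57) with a median of 63.3. In H2-Ea-expressing libraries it ran from 6.09 to 14.1 CPM with a median of 8.96, and in Cp-low H2-Ea-negative libraries from 1.01 to 5.31 CPM with a median of 2.44. No library of a class overlapped another class. The ratio of class medians was 7.07 between Cp-high and H2-Ea-expressing libraries, 3.67 between H2-Ea-expressing and Cp-low H2-Ea-negative libraries and 26.0 between the extremes. The gap between the 2 lower classes was narrow, since the lowest H2-Ea-expressing library was 1.15 times the highest Cp-low H2-Ea-negative library. At 26 to 4885 counts per library, none of these values was close to the counting floor of 3 counts. The class held 93.4% of the variance of log2(CPM + 0.5) of Plin4 over libraries, at the 92.2 percentile of the 15217 genes with at least 1 CPM in at least 4 libraries, whose median share was 64.6%.

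Separation by class was common in these libraries, so the count for the members has to be read beside that of all genes. Between Cp-high and H2-Ea-expressing libraries, 18.9% of the 15217 genes were higher without overlap and 12% lower. Of the 4 members at that level, Plin2 and Plin4 were higher without overlap and Fabp4 was lower. Between Cp-high and Cp-low H2-Ea-negative libraries the shares were 14.6% higher and 15.5% lower, with Plin4 higher. Between H2-Ea-expressing and Cp-low H2-Ea-negative libraries they were 9.19% higher and 17% lower, with Plin4 higher and Plin2 lower. The median log2 ratio of class medians over the 4 members was 0.68, 0.16 and 0.43 in these 3 comparisons, against 0.07, -0.02 and -0.08 over all genes.

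Plin4 lies on the minus strand of chromosome 17 (56100591 to 56109803 in the GENCODE annotation of GRCm38) and overlaps Hdgfl2, a chromatin-binding protein gene on the plus strand. Whether the authors' counting used strand is not given in the sources used here, so reads of the overlap cannot be assigned with certainty. Hdgfl2 was at medians of 95.4, 91.6 and 84.9 CPM in Cp-high, H2-Ea-expressing and Cp-low H2-Ea-negative libraries, with overlapping ranges. Plin5, the next coding gene on the same strand, had medians of 0.182, 0.119 and 0.201 CPM. The class bands of Plin4 were thus not seen in Hdgfl2. Plin5, with class medians of 2.5 to 5.5 counts, was too close to the counting floor to show such bands.

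In each of the 9 labelled groups the Cp-high libraries had the highest Plin4. The 3 Cp-high libraries labelled IgG ran from 62.4 to 90.9 CPM, the 4 labelled anti-CTLA4 from 54.3 to 206 CPM and the 5 labelled anti-PD-1 from 49.2 to 110 CPM, overlapping throughout. The value of 206 CPM in PancO2 anti-CTLA4 57 was 1.87 times the next Cp-high library, MC38 anti-PD-1 18 at 110 CPM. In the Cp-low H2-Ea-negative class, the 3 libraries labelled PancO2 were at 2.98 to 5.31 CPM and the 4 labelled MC38 at 1.01 to 2.28 CPM, a separation noticed among many and not tested.

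**Figure D2:**
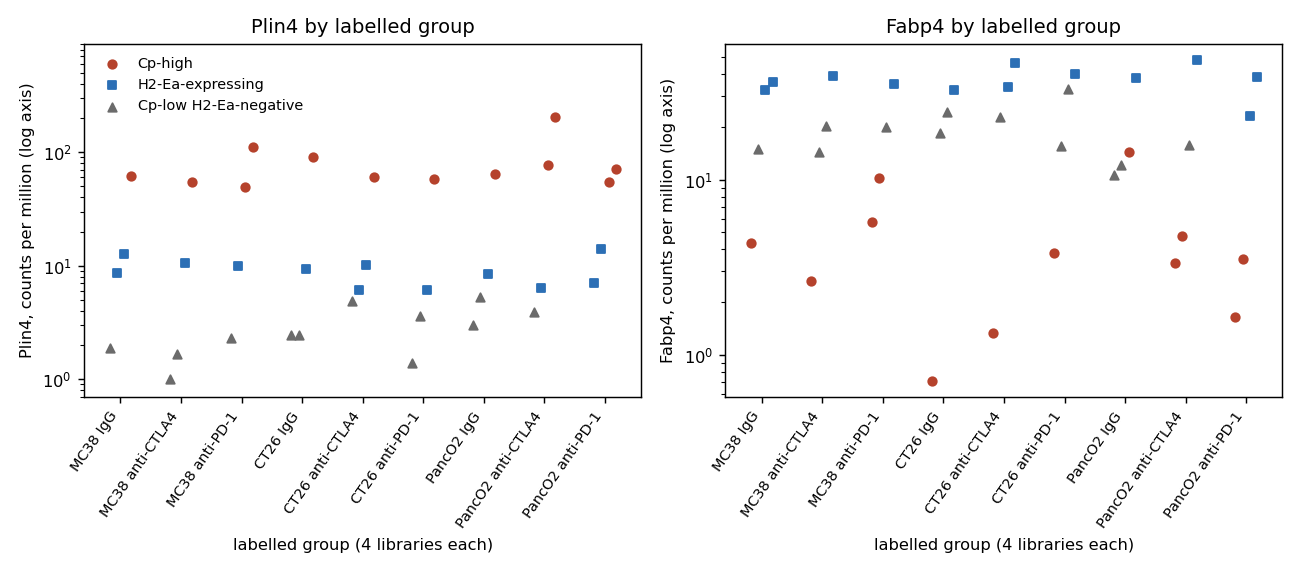
Plin4 (left) and Fabp4 (right) in CPM on a log axis for the 9 labelled groups, 4 libraries each, with colour and shape giving the class. In every group the Cp-high libraries have the highest Plin4, from 49.2 to 206 CPM, while their Fabp4 does not exceed 14.3 CPM.

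The ubiquitous coats Plin2 and Plin3 were abundant in every library. Plin2, which is stabilised by stored lipid and is known as a marker of lipid-laden cells, ran from 130 to 254 CPM (median 157) in Cp-high libraries and from 119 to 211 CPM (median 153) in Cp-low H2-Ea-negative libraries. In H2-Ea-expressing libraries it was lower, at 41.1 to 116 CPM (median 86.8). The 41.1 CPM came from PancO2 anti-PD-1 71, and without that library the class began at 70.6 CPM and its median was 87.4. The median of H2-Ea-expressing libraries was 1.76 times lower than that of Cp-low H2-Ea-negative libraries, although the nearest libraries of the 2 classes were only 1.03-fold apart, and after scaling by trimmed mean of M values (TMM) Plin2 of the H2-Ea-expressing class overlapped both other classes. Plin3 varied least, with medians of 87.5 CPM in Cp-high, 61.6 CPM in H2-Ea-expressing and 72.2 CPM in Cp-low H2-Ea-negative libraries, and its ranges of 75.7 to 104, 56.6 to 77.5 and 62.7 to 77.4 CPM met or overlapped. Classes held 68% of the variance of Plin2 and 70.1% of that of Plin3, close to the median share of all genes.

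Levels of different genes can be compared only per length, and CPM per kilobase of annotated exon was used for that. On this scale Plin2 was the largest part of the perilipin transcripts in 35 of the 36 libraries; in PancO2 anti-PD-1 71 Plin3 was. Plin2 made up a median of 54.7% of the perilipin sum in Cp-high, 57.3% in H2-Ea-expressing and 69.1% in Cp-low H2-Ea-negative libraries. Plin4 made up 9.02% to 34.5% (median 14.4%) in Cp-high libraries, 2.50% to 4.92% (median 3.8%) in H2-Ea-expressing and 0.226% to 1.55% (median 0.663%) in Cp-low H2-Ea-negative libraries. Plin1 and Plin5 stayed under 0.7% of the sum in all 36 libraries.

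**Figure D3:**
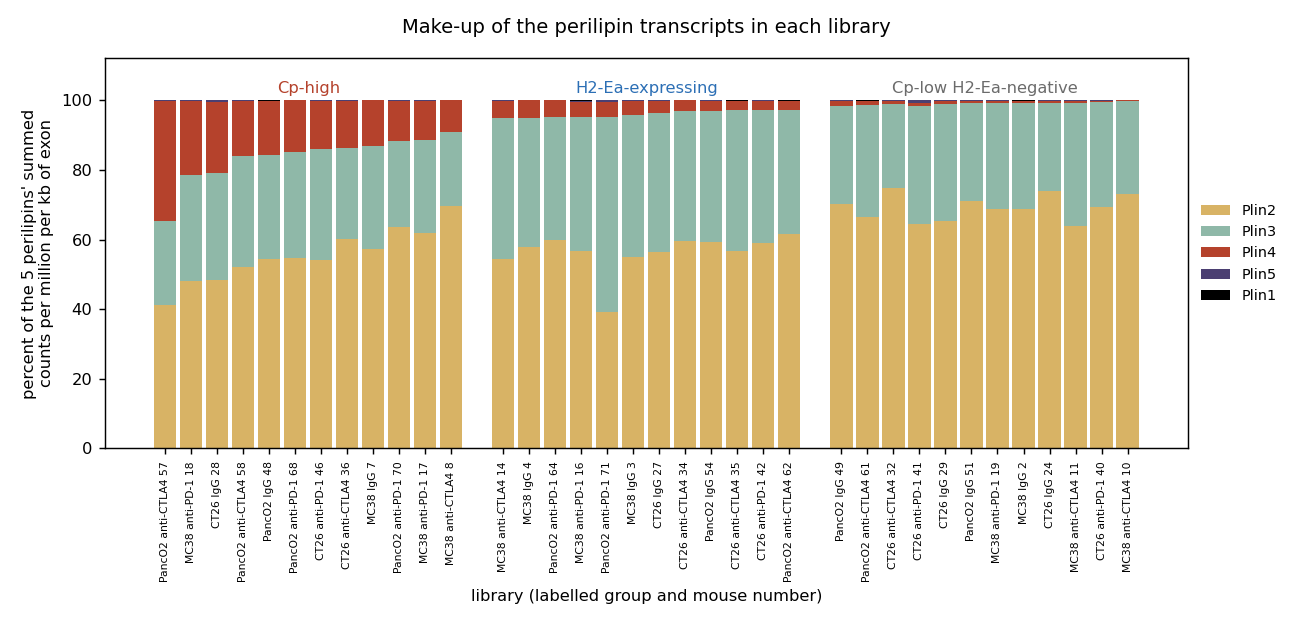
Share of each perilipin in the summed CPM per kilobase of exon of the 5 perilipins, as stacked bars from 0 to 100% for each of the 36 libraries, grouped by class and ordered by the Plin4 share. Plin4 takes between 9.02% and 34.5% in the Cp-high class and at most 1.55% in the Cp-low H2-Ea-negative class, while Plin1 and Plin5 are hardly visible.

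Fabp4 ran opposite to Plin4 at the Cp-high end. Its median was 3.66 CPM (0.713 to 14.3) in Cp-high libraries, 37.2 CPM (23.1 to 48.3) in H2-Ea-expressing libraries and 17.2 CPM (10.7 to 32.8) in Cp-low H2-Ea-negative libraries. The H2-Ea-expressing libraries all lay above the Cp-high libraries, by 10.1-fold at the medians. The Cp-low H2-Ea-negative libraries overlapped both classes. Within the Cp-high class Fabp4 spread over 20.1-fold, from 13 counts in CT26 IgG 28 to 511 counts in PancO2 IgG 48, while in the H2-Ea-expressing class it spread over 2.09-fold. Classes held 81.3% of its variance.

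Markers of other cells that make Fabp4 were read as lists. The sum of 7 endothelial markers (Pecam1, Cdh5, Tie1, Tek, Kdr, Cldn5 and Egfl7) was 84.4 to 205 CPM in Cp-high, 104 to 239 CPM in H2-Ea-expressing and 120 to 218 CPM in Cp-low H2-Ea-negative libraries, with medians of 115, 172 and 188 CPM. The median log2 ratio of the 7 was -0.33 for Cp-high against H2-Ea-expressing and -0.51 for Cp-high against Cp-low H2-Ea-negative libraries, so the list was lower in the Cp-high class, where Fabp4 was lowest. None of the 7 separated Cp-high from H2-Ea-expressing libraries without overlap. The sum of 7 macrophage markers had medians of 978, 987 and 1392 CPM in the 3 classes, and the median log2 ratio of the 7 was 0.42 and -0.05 in the same comparisons, so the list did not share the Fabp4 order. Of its 7 genes, Mrc1 (the mannose receptor) and Msr1 (a scavenger receptor) were lower without overlap in Cp-high than in both other classes. Over all genes 12% were lower without overlap than in H2-Ea-expressing and 15.5% than in Cp-low H2-Ea-negative libraries. The 2 genes are therefore not read as a result about the list. Msr1 was at 27.1 to 81.1 CPM in Cp-high libraries, 154 to 318 CPM in H2-Ea-expressing libraries and 150 to 234 CPM in Cp-low H2-Ea-negative libraries. Adgre1, the F4/80 antigen, did not take that order, with medians of 95.8, 54 and 95.0 CPM. The part of these cells in the Fabp4 values was not tested.

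Relations between libraries were computed inside each class, over 12 libraries, for 10 pairs of genes, 30 relations in all, as Pearson r and Spearman rho of log2(CPM + 0.5) with two-sided permutation p over 100000 permutations and Benjamini-Hochberg adjustment over the 30. Of these, 7 had an adjusted Pearson p under 0.05 and 5 an adjusted Spearman p under 0.05. Because Fabp4 is made by fat cells and by endothelium, it was set against Adipoq and against Cdh5, the endothelial cadherin. In Cp-high libraries it went with Adipoq (r = 0.89, permutation p = 0.00011, adjusted 0.0011, rho = 0.87, permutation p = 0.00036, adjusted 0.0054, r = 0.74 without the 2 libraries farthest from the Fabp4 median). Its relation to Cdh5 there was r = -0.11 (permutation p = 0.721, adjusted 0.721) and rho = -0.14 (permutation p = 0.665, adjusted 0.767). In H2-Ea-expressing libraries the relation to Cdh5 was r = 0.60 (permutation p = 0.0428, adjusted 0.117) and rho = 0.66 (permutation p = 0.0234, adjusted 0.0649), and r fell to 0.12 without the 2 farthest libraries, so it rests on those libraries. Without PancO2 anti-PD-1 71 it was r = 0.87 and passed the adjusted threshold. Whether the relations differ between classes was not tested.

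The genes that mark fat cells were low in all 3 classes and highest in a few libraries of each. Adipoq ran from 0 to 1.18 CPM (median 0.418) in Cp-high libraries, from 0 to 0.468 CPM (median 0.0593) in H2-Ea-expressing libraries and from 0 to 0.821 CPM (median 0.231) in Cp-low H2-Ea-negative libraries. Above 3 counts it was found in 10 of 12 Cp-high, 2 of 12 H2-Ea-expressing and 7 of 12 Cp-low H2-Ea-negative libraries. Below the highest value, 5 Cp-high libraries lay at 0.549 to 0.650 CPM, so the Cp-high median was not set by 1 tumour. The ranges overlapped between every pair of classes, and 6 of 36 libraries held no Adipoq count. A count of 0 allows up to 3 counts, between 0.0719 and 0.381 CPM depending on the library, so a value of 3 counts or fewer is not distinguishable from 0. In all, 19 libraries had more than 3 counts of Adipoq, 16 of Cidec, 12 of Lep, 10 of Plin1 and 2 of Cidea. Intervals and floors here cover counting error only.

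PancO2 IgG 48 had the highest Adipoq, Plin1 and Cidec of all 36 libraries, while the highest Lep and Cidea were in PancO2 anti-PD-1 71. In PancO2 IgG 48, a Cp-high library, Adipoq was at 1.18 CPM (42 counts, exact 95% binomial interval 0.849 to 1.59 CPM), Cidec at 0.841 CPM (30 counts) and Lep at 0.645 CPM (23 counts). Plin1 was at 0.309 CPM (11 counts) and Cidea at 0.365 CPM (13 counts). Among the 12 Cp-high libraries it was the highest for all 6 fat cell genes, Fabp4 included. It held 15.5% of the 767 counts that all 36 libraries had of Adipoq, Lep, Plin1, Cidec and Cidea, and 3.8% of all counts. Plin4, in contrast, was at 64.3 CPM in that library, close to the Cp-high median of 63.3. In the other classes the peaks were more scattered. PancO2 anti-CTLA4 62 was the highest H2-Ea-expressing library for Adipoq (13 counts), Plin1 (8 counts), Cidec (18 counts) and Fabp4, whereas in the Cp-low H2-Ea-negative class 6 different libraries led the 6 genes, with CT26 IgG 24 highest for Adipoq at 0.821 CPM (27 counts).

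The same tumours were not uniformly rich in other subcutaneous tissue. PancO2 IgG 48 had the highest sum of 7 skin markers (the keratinocyte genes Krt14, Krt5, Krt10, Krt1, Lor, Flg2 and Dsg1a) of all libraries, at 555 CPM, against 2.58 to 91.3 CPM in the other 35. Its sum of 7 skeletal muscle markers was 155 CPM, behind 2 other Cp-high libraries. MC38 anti-PD-1 18 led the muscle sum at 714 CPM and was second in its class for the 5 fat cell genes, at 1.65 CPM against 3.34 CPM in PancO2 IgG 48. CT26 IgG 29, the skin-richest library of its class at 91.3 CPM, had only 0.441 CPM of the 5 fat cell genes, and MC38 IgG 2, with the lowest muscle sum of its class at 11.3 CPM, had 1.5 CPM. The part of skin and muscle in the fat cell values was not tested.

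**Figure D4:**
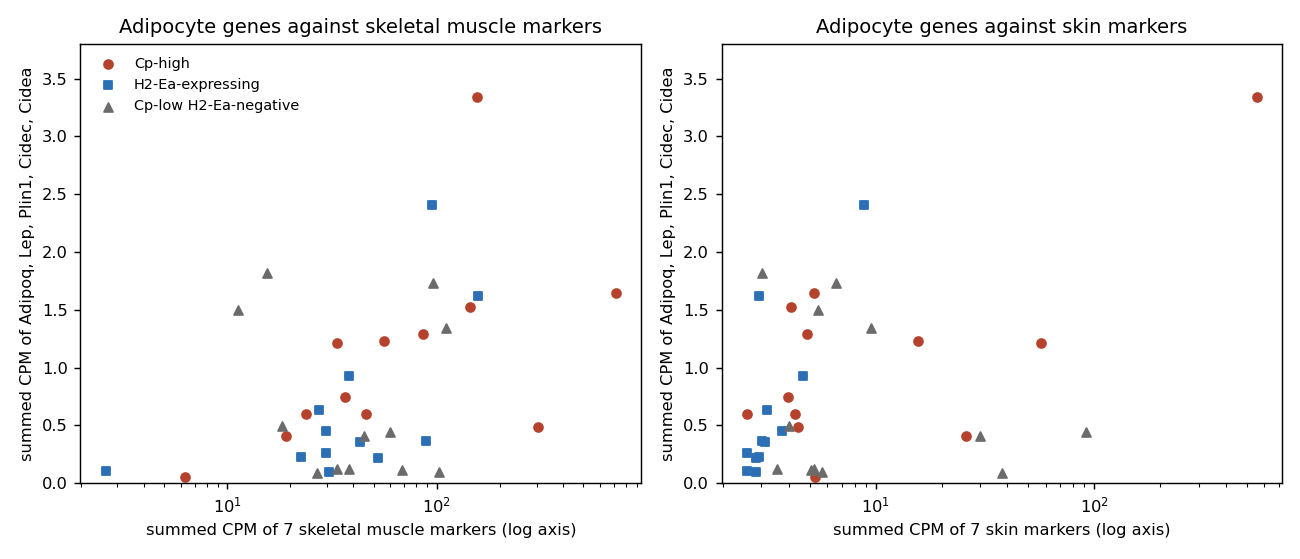
Summed CPM of Adipoq, Lep, Plin1, Cidec and Cidea (linear axis from 0) against the summed CPM of 7 skeletal muscle markers (left, log axis) and of 7 skin markers (right, log axis) in the 36 libraries, coloured by class. PancO2 IgG 48 is the highest point in both panels at 3.34 CPM, while MC38 IgG 7, with 303 CPM of muscle markers, is at 0.486 CPM and CT26 IgG 29, with 91.3 CPM of skin markers, at 0.441 CPM.

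Within classes Adipoq was set against other genes abundant in fat. Its relation to Cfd, the adipocyte protease adipsin, was r = 0.93 in Cp-high libraries (permutation p = 7e-05, adjusted 0.00105, rho = 0.92, permutation p = 8e-05, adjusted 0.0024, r = 0.86 without the 2 farthest libraries). In Cp-low H2-Ea-negative libraries it was r = 0.92 (permutation p = 6e-05, adjusted 0.00105, rho = 0.83, permutation p = 0.00141, adjusted 0.0106, r = 0.89 without the 2 farthest). In H2-Ea-expressing libraries it was r = 0.81 (permutation p = 0.00156, adjusted 0.00669), but rho was 0.65 (permutation p = 0.0238, adjusted 0.0649) and r was 0.50 without the 2 farthest libraries. The adipokine Retn and the enzyme Car3, both abundant in fat, went with Adipoq in Cp-high libraries, at r = 0.86 (permutation p = 0.00038, adjusted 0.00285, rho = 0.76, adjusted 0.0354, r = 0.71 without the 2 farthest) and r = 0.81 (permutation p = 0.00122, adjusted 0.00645, rho = 0.84, adjusted 0.0095, r = 0.71 without the 2 farthest). In the other classes Retn and Car3 did not pass, with r between 0.27 and 0.47 and adjusted permutation p between 0.244 and 0.471. For Acta1 of skeletal muscle, r with Adipoq was 0.64, 0.56 and -0.37 in Cp-high, H2-Ea-expressing and Cp-low H2-Ea-negative libraries (adjusted permutation p = 0.0777, 0.15 and 0.359), and for Krt14 of skin it was 0.57, 0.29 and -0.23 (adjusted permutation p = 0.123, 0.407 and 0.533).

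Plin4 showed no detectable relation to Adipoq inside any class. In H2-Ea-expressing libraries only 2 of 12 had more than 3 Adipoq counts, which limits what could be seen there. In Cp-high libraries r was 0.13 (permutation p = 0.696) and rho 0.10 (permutation p = 0.765), in H2-Ea-expressing libraries r was -0.36 (permutation p = 0.25) and rho -0.13 (permutation p = 0.697), and in Cp-low H2-Ea-negative libraries r was 0.15 (permutation p = 0.627) and rho 0.19 (permutation p = 0.55). The adjusted Pearson p were 0.72, 0.359 and 0.672. Single tumours went both ways. CT26 IgG 28 held 0 counts of Adipoq, Plin1 and Cidec and 1 of Lep, with Plin4 at 90.9 CPM (1659 counts), the third highest of all libraries. Plin4 was higher in PancO2 anti-CTLA4 57 (206 CPM) and MC38 anti-PD-1 18 (110 CPM). These ranked 3 and 2 among Cp-high libraries for summed Adipoq, Lep, Plin1, Cidec and Cidea, and 4 and 1 for the muscle sum. The part of fat and muscle in the Plin4 values was not tested.

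**Figure D5:**
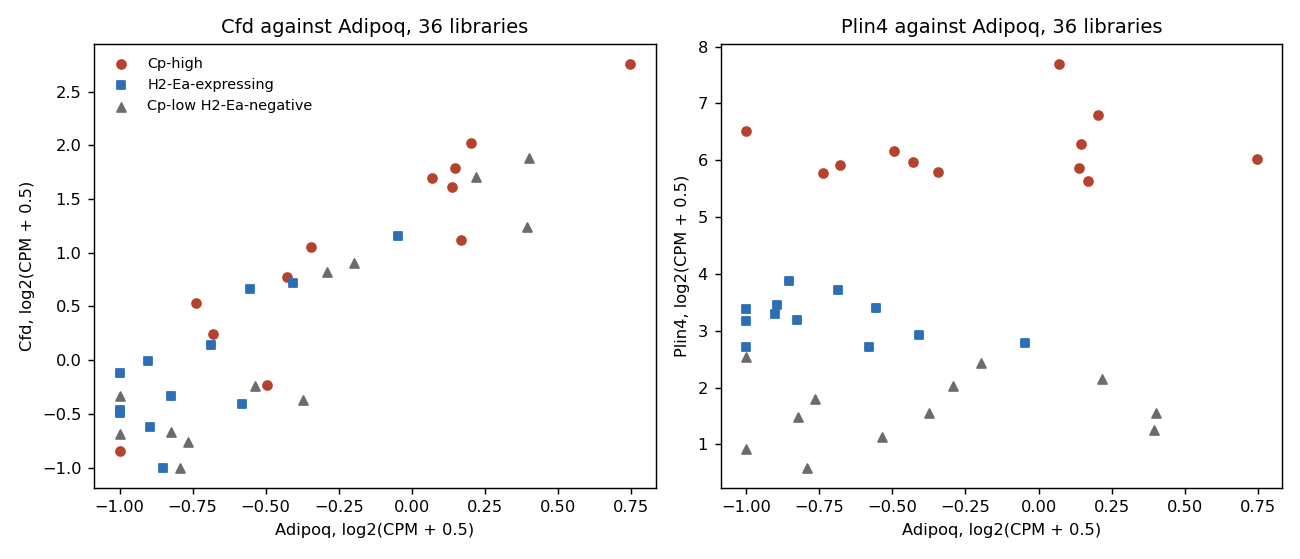
Cfd (left) and Plin4 (right) against Adipoq, all as log2(CPM + 0.5), 1 point per library, coloured by class. Cfd climbs with Adipoq, with r of 0.93, 0.81 and 0.92 in the 3 classes, whereas Plin4 lies in 3 horizontal bands set by class.

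The remaining fat cell genes were thinner still. Cidea, typical of brown fat and of sebaceous gland, had counts in 5 of 36 libraries, led by PancO2 IgG 48 (13 counts) and PancO2 anti-PD-1 71 (8 counts, 1.01 CPM). These were also the libraries with the highest sum of 5 sebaceous gland markers, at 9.56 and 10.0 CPM against at most 7.62 CPM in the others, and the part of sebaceous gland in the Cidea counts was not tested. Cidea lies on chromosome 18 and overlaps an antisense transcript, so its few counts are uncertain without strand. Lep was also highest in PancO2 anti-PD-1 71, at 1.01 CPM (8 counts, exact 95% binomial interval 0.438 to 2.0 CPM). In that library Aqp7, the glycerol channel of fat cells, was at 28.8 CPM, against 0.162 to 1.82 CPM in the other 35, and Ucp1, the uncoupling protein of brown fat, was at 2.03 CPM, against at most 0.168 CPM. Retn was at 2.16 CPM, against at most 0.701 CPM elsewhere, and Car3 at 17.3 CPM was the highest of its class. Other fat cell genes did not stand out there. Pparg was at 1.14 CPM (class range 0.862 to 2.34), and Cfd at 1.14 CPM was below the 1.73 CPM of PancO2 anti-CTLA4 62. Fabp4 was at 38.6 CPM, near the class median of 37.2. This is the shallowest library, with 15.7% of its counts mitochondrial, and the part of fat in its values was not tested. Adipoq, with 2 counts (0.254 CPM), was second to 1 library of its class, and at this depth 0 counts of Plin1 allow up to 0.381 CPM, more than any library had. Plin5 was between 0 and 0.845 CPM in all libraries, highest in CT26 anti-PD-1 41 (24 counts), and did not follow Adipoq peaks: PancO2 IgG 48 had 7 counts.

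The other genes of the fat cell and lipid droplet programmes were read from lists of 17 and 20 genes. Of the 17 fat cell genes outside the members, 10 reached 1 CPM in at least 4 libraries, and Pparg and Gpd1 were higher without overlap in Cp-high than in both other classes. Of the 10, 3 were higher and 0 lower without overlap in Cp-high than in H2-Ea-expressing libraries. For Cp-high against Cp-low H2-Ea-negative libraries the counts were again 3 and 0. Over all genes 18.9% and 14.6% were higher, so these counts are not read as a result about the list. The share of all genes higher than in both other classes was not counted. Between H2-Ea-expressing and Cp-low H2-Ea-negative libraries 0 were higher and 1 lower, against 9.19% and 17%. Pparg, the nuclear receptor that drives fat cell formation, was at 5.41 to 10.7 CPM (median 7.78) in Cp-high libraries, against 0.862 to 2.34 CPM in H2-Ea-expressing and 0.735 to 1.49 CPM in Cp-low H2-Ea-negative libraries. Gpd1, the enzyme that makes glycerol phosphate for triglycerides, was at 2.05 to 6.24 CPM, against 0.381 to 1.49 and 0.798 to 1.49 CPM. The factor Cebpa was lowest in H2-Ea-expressing libraries (3.30 to 14.2 CPM), without overlap with either other class. Thus Pparg had the class order of Plin4 at the Cp-high end while Fabp4, also a known Pparg target, had the opposite one. Lipe, the hormone-sensitive lipase, was at medians of 16.8, 12.2 and 8.51 CPM, and Lpl, the lipoprotein lipase, at 21.7, 14.9 and 11.4 CPM in Cp-high, H2-Ea-expressing and Cp-low H2-Ea-negative libraries.

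Among the 20 droplet and triglyceride genes, 19 were at that level. Pnpla2, the first lipase of triglyceride breakdown, was higher without overlap in Cp-high libraries, at 46.9 to 66.0 CPM against 16.4 to 42.6 and 27.4 to 44.3 CPM. Bscl2, the seipin of droplet formation, was at 49.2 to 65.0 CPM against 10.4 to 37.2 and 16.2 to 32.8 CPM. Soat1, which esterifies cholesterol for storage, ran the other way, at 79.8 to 113 CPM in Cp-high, 114 to 166 CPM in Cp-low H2-Ea-negative and 168 to 227 CPM in H2-Ea-expressing libraries. In all, 4 of the 19 were higher and 1 lower without overlap between Cp-high and H2-Ea-expressing libraries, 3 higher and 1 lower between Cp-high and Cp-low H2-Ea-negative libraries, and 2 higher and 1 lower between H2-Ea-expressing and Cp-low H2-Ea-negative libraries. The higher counts are near the shares of all genes (18.9%, 14.6% and 9.19%) and the lower counts are under theirs (12%, 15.5% and 17%), so they are no result about the list. The medians of log2 class ratios over the droplet list were -0.06, 0.07 and -0.08. Over the 10 of 17 fat cell genes at that level they were 0.49, 1.07 and 0.07. A gene can reach that level through 1 class alone, so these medians are not read as a result about the list. The sum of all 17 was 113 to 219 CPM in Cp-high and 54.9 to 89.4 CPM in Cp-low H2-Ea-negative libraries, without overlap. In H2-Ea-expressing libraries it was 67.8 to 154 CPM, where the highest was PancO2 anti-PD-1 71.

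Plin2 was set against Hilpda, a hypoxia-induced inhibitor of Pnpla2 that raises droplet storage, and against Adgre1. With Hilpda, r was 0.83 in H2-Ea-expressing libraries (permutation p = 0.00129, adjusted 0.00645, rho = 0.68, permutation p = 0.0189, adjusted 0.063), 0.65 in Cp-high libraries (permutation p = 0.0233, adjusted 0.0777, rho = 0.71, adjusted 0.0596) and 0.61 in Cp-low H2-Ea-negative libraries (permutation p = 0.0355, adjusted 0.107, rho = 0.69, adjusted 0.063). The first lost its call without PancO2 anti-PD-1 71, where r was 0.68, and r in the 3 classes was 0.54, 0.49 and 0.47 without the 2 libraries farthest from the Plin2 median. With Adgre1, r was 0.42, 0.27 and -0.33 in Cp-high, H2-Ea-expressing and Cp-low H2-Ea-negative libraries (adjusted permutation p = 0.312, 0.471 and 0.385).

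Genes most like 2 of the members were taken from the 15213 other genes with at least 1 CPM in at least 4 libraries, as a description over 36 libraries that share depth and class. For Adipoq, after the class median of log2(CPM + 0.5) was subtracted, Cfd came first at r = 0.89, and then Dffa at 0.70, Tacr1 at 0.69, Gm11427 at 0.67, Atoh8 at 0.62, Cdo1 at 0.60, Hba-a2 at 0.60 and Smap2 at 0.59. Without PancO2 anti-PD-1 71 the first 4 were the same genes and the next 4 were others. For Plin4, without subtraction, the 8 highest were Syn3 (r = 0.97), Sned1, Lefty1, Gm12606, Gsta4, Insyn1, Hlcs and Klc3, down to r = 0.96. All 8 had their highest class median in Cp-high and their lowest in Cp-low H2-Ea-negative libraries. Sned1, a matrix protein gene, had class medians of 182, 7.53 and 2.04 CPM, and Gsta4, a glutathione transferase of lipid peroxidation products, 47.3, 8.04 and 2.21 CPM.

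The labelled comparisons, which ask how the models and the checkpoint antibodies differ, called no member. Because H2-Ea-ps goes against the labelled strains, these compare libraries as labelled, and an absence of calls between them cannot be read as an absence of a difference between the models or the antibodies. edgeR's quasi-likelihood test on the raw counts, fitted over all tested genes with Benjamini-Hochberg adjustment, called 0% of 16285 to 16510 genes in each of 3 comparisons between models and 6 of a treatment with IgG, with 25 to 912 genes at an unadjusted p under 0.05. DESeq2 called 0 to 2 genes per comparison and limma-voom 0. Plin2, Plin3, Plin4 and Fabp4 entered all 9 fits, and Adipoq and Cidec entered those of the 2 PancO2 treatments. Among these members the lowest unadjusted p was 0.183, for Plin4 in PancO2 anti-CTLA4 against IgG (log2 fold change 1.82, SE 1.28, adjusted p by edgeR 1.0). There the 4 anti-CTLA4 libraries had Plin4 at 3.92, 6.40, 77.4 and 206 CPM and the 4 IgG libraries at 2.98, 5.31, 8.46 and 64.3 CPM, so the groups overlapped. With a term for class the log2 fold change was 0.43 (SE 0.48), and over the 9 comparisons the SE of Plin4 was 1.26 to 1.44 without that term and 0.264 to 0.512 with it. Of the fat cell and droplet lists, 0 genes were called in any of the 9 comparisons.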

How the data were processed

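Poly-A selected RNA (TRIzol extraction) of tumours, with a TruSeq V2 kit per the labels, was analysed in 36 libraries as 1 table of raw read counts per Ensembl gene that the authors deposited. The study's methods name a stranded KAPA kit in a section on unique mutations, which does not say whether it covers these tumours. The authors mapped reads to GRCm38/mm10 with TopHat and Bowtie2, checked them with FastQC 0.11.5 and assigned them to genes with HTSeq. Reads with more than 1 position were set aside by HTSeq, and the strand setting and Ensembl release are not given in the sources used here. The 5 summary lines were left out of all totals. They made up 44.8% to 63.4% of the column sum in 35 libraries and 86.5% in PancO2 anti-PD-1 71. Symbols were found for 32608 of 37417 identifiers, and coordinates and exon lengths were taken from GENCODE for GRCm38.

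Members, lists and tests were chosen with earlier results of these data known. Genes were named as the 10 members, the 2 class genes, 9 fixed lists by count, and the 8 genes most correlated with Adipoq and with Plin4, among genes of at least 1 CPM in at least 4 libraries. Other genes were named after their values were seen. CPM used the sum over genes of each library, and class shares and relations a pseudocount of 0.5 CPM. Comparisons of labelled groups were made with the quasi-likelihood test of edgeR 4.0.16 (R 4.3.3) after TMM scaling and a filter by filterByExpr, an adjusted p under 0.05 and, for each fit, the 12 libraries of IgG or of 1 model. Each mouse number names 1 library. Nothing says how far the tumours of a group were raised apart, so p-values measure the spread between these samples. Alternatives were DESeq2 1.42.0, limma 3.58.1, other scalings, filters, pseudocounts and class thresholds, a class term and leaving out libraries. The tests were tested on simulated data. Python 3.11.15, numpy 2.4.6, pandas 2.3.3, scipy 1.17.1 and matplotlib 3.10.9 were used.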

Additional observations from a re-analysis of the deposited data

Results flagged for a closer look

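In labelled groups of 4 libraries, a library was noted when its gap to the nearest other divided by the group's range, in CPM, exceeded Dixon's 95% critical value. Of 86 combinations of group and member, 17 met this. Chance gives about 1 in 20 for values spread normally, which does not apply to the 7 of Lep and Cidea, where the other 3 libraries were at 0 and any count meets the criterion.

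Plin4 stood out in 4 groups with a single Cp-high library: at 90.9 CPM in CT26 IgG 28 (others 2.43 to 9.31), 60.1 CPM in CT26 anti-CTLA4 36 (4.87 to 10.1), 58.1 CPM in CT26 anti-PD-1 46 (1.39 to 6.09) and 64.3 CPM in PancO2 IgG 48 (2.98 to 8.46). Plin2 at 82.6 CPM in MC38 anti-PD-1 16 (others 152 to 162) and Fabp4 at 38.1 CPM in PancO2 IgG 54 (10.7 to 14.3) were each in the only H2-Ea-expressing library of the group.

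In PancO2 IgG 48, Adipoq at 1.18 CPM (others 0 to 0.0886), Lep at 0.645 CPM (all others 0), Cidec at 0.841 CPM (0 to 0.142) and Cidea at 0.365 CPM (all others 0) stood out together. Cidec also did in MC38 IgG 2 at 0.293 CPM (9 counts), and Plin5 in CT26 anti-PD-1 41 at 0.845 CPM (24 counts, others 0.0900 to 0.130).

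The others were Lep at 0.150 CPM in CT26 anti-PD-1 46 (5 counts) and Cidea at 0.0340 CPM in CT26 IgG 29 (1 count), 0.0621 CPM in CT26 anti-CTLA4 36 (2 counts), 0.0759 CPM in PancO2 anti-CTLA4 58 (1 count) and 1.01 CPM in PancO2 anti-PD-1 71 (8 counts), each against 0 in the other 3 libraries of the group, and 3 of these 5 rest on no more than 3 counts.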

How the results depend on the processing

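No paired analysis was possible because every mouse number in the labels belongs to 1 library. No member was called in any of the 9 labelled comparisons under any alternative, and no gene with each library left out in turn (lowest 0, highest 0). With DESeq2 the number of genes called was 1 for PancO2 IgG against MC38 IgG, 1 for CT26 IgG against MC38 IgG, 2 for PancO2 anti-CTLA4 against IgG and 2 for PancO2 anti-PD-1 against IgG. The log2 fold change of Plin4 in PancO2 anti-CTLA4 against IgG was 0.51 when PancO2 anti-CTLA4 57 was left out and 3.68 when PancO2 IgG 48 was, its lowest and highest values.

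TMM-scaled CPM reduced the members higher without overlap in Cp-high than in H2-Ea-expressing libraries from 2 to 1, and those lower in H2-Ea-expressing than in Cp-low H2-Ea-negative libraries from 1 to 0. Both changes were Plin2, and the median of all genes shifted from 0.075 to -0.0022 and from -0.094 to -0.027 (log2) in these comparisons. With H2-Ea-ps above 1 CPM and Cp above 500 CPM, which made 13 libraries Cp-high, the first count was also 1, but here the change was Plin4. PancO2 IgG 49, with Cp at 611 CPM, then counted as Cp-high. Its Plin4 of 5.31 CPM was below the 6.09 CPM at which the H2-Ea-expressing libraries began. The log2 ratio of Plin2 between Cp-high and Cp-low H2-Ea-negative libraries was -0.0523 in place of 0.04. With H2-Ea-ps above 30 CPM and Cp above 1500 CPM, which left 10 libraries Cp-high, the members higher without overlap than in the Cp-low H2-Ea-negative class were 0 for Cp-high and 0 for H2-Ea-expressing libraries, and classes held 60.4% of the Plin4 variance, because 2 Cp-high libraries then counted as Cp-low. Without PancO2 anti-PD-1 71, r within H2-Ea-expressing libraries turned from 0.29 to -0.0441 for Adipoq with Krt14 and from 0.27 to -0.0861 for Plin2 with Adgre1. The relation of Adipoq to Cfd in H2-Ea-expressing libraries lost its call with a pseudocount of 0.1 CPM (r = 0.68). The number of relations past the adjusted threshold stayed within 1.5 times under each alternative. Depth limits the fat cell genes, of which no library had more than 42 counts of 1 gene besides Fabp4.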

Other observations

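Among 7 genes that low oxygen is known to induce, Egln3, Car9 and Adm separated classes, each in an order of its own. Of the 7, 2 were higher and 0 lower without overlap in Cp-high than in H2-Ea-expressing libraries. For Cp-high against Cp-low H2-Ea-negative libraries the counts were again 2 and 0, and for H2-Ea-expressing against Cp-low H2-Ea-negative libraries 1 and 1. The shares of all genes were 18.9% and 12%, 14.6% and 15.5%, and 9.19% and 17%. The counts are therefore not read as a result about the list. Egln3, an oxygen-sensing hydroxylase, was at 3.66 to 11.1 CPM in H2-Ea-expressing libraries, below the 153 to 436 CPM of Cp-high and the 118 to 364 CPM of Cp-low H2-Ea-negative libraries. Car9, a carbonic anhydrase, was lowest in Cp-low H2-Ea-negative libraries, at 1.92 to 4.17 CPM against 11.2 to 63.7 CPM in Cp-high and 13.2 to 72.3 CPM in H2-Ea-expressing libraries. Adm, the peptide adrenomedullin, was highest in Cp-high libraries, at 6.94 to 35.8 CPM against 3.58 to 5.78 and 2.21 to 5.28 CPM.

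Of 7 skeletal muscle and 7 skin markers, 6 and 5 reached 1 CPM in at least 4 libraries, and none separated any pair of classes. Of 5 mammary epithelium and 5 sebaceous gland markers 1 each did, Csn3 and Far2. The casein gene Csn3 was at 0.182 to 1.15 CPM in Cp-low H2-Ea-negative libraries, against 1.71 to 14.6 CPM in Cp-high and 2.98 to 16.7 CPM in H2-Ea-expressing libraries. Far2, a fatty acyl reductase, was at 1.27 to 3.61 CPM in H2-Ea-expressing libraries against 3.95 to 6.16 CPM in Cp-low H2-Ea-negative libraries. Of the 7 macrophage markers, Csf1r and C1qa were lower without overlap in H2-Ea-expressing than in Cp-low H2-Ea-negative libraries, with medians of 133 and 318 CPM for Csf1r and of 214 and 357 CPM for C1qa. Over all genes 17% were lower and 9.19% higher without overlap in that comparison. The genes named here are therefore not read as results about their lists.

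Across the 36 libraries, without subtraction of class medians, the genes most like Fabp4 were Cd300lb (r = 0.94), a myeloid receptor, and Srd5a3 (r = 0.93), with class medians of 3.44, 27.4 and 13.6 CPM for Cd300lb in Cp-high, H2-Ea-expressing and Cp-low H2-Ea-negative libraries. They were looked up after the values of Fabp4 were seen and carry no test.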
